A study of Mus musculus with 2 samples.

Results

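The genes described here encode the subunits of the mitochondrial respiratory chain and of ATP synthase. They were chosen by symbol, from both genomes that code for them: the protein genes of mitochondrial DNA (mt-Nd, mt-Co, mt-Atp and mt-Cytb) and the nuclear families Nduf, Sdh, Uqcr, Cyc1, Cox4 to Cox8 and Atp5. The rule found 102 of the 51826 genes in the table, of which 13 lie on mitochondrial DNA and 89 in the nucleus. Of the nuclear genes, 83 encode subunits of complexes I to V, 4 are pseudogenes, and Atp5s and Atp5sl carry the family name without being subunits. The study set spinal cord of Secisbp2l conditional knockout (cKO) mice against spinal cord of wild type (WT) mice, all C57BL/6 and taken at postnatal day 7. The cKO mice carried Olig1-Cre and a Secisbp2l allele with loxP sites around exon 3, so recombination was directed to cells that express Olig1, chiefly the oligodendrocyte lineage, while whole cord was sequenced. Each group was 1 mRNA library, and the number of animals pooled into it is not given in the labels. No difference below has a replicate check or a test, and every interval covers counting error only.

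The respiratory chain passes electrons from NADH through complex I, or from succinate through complex II, to ubiquinone, complex III, cytochrome c and, at complex IV, to oxygen. Complexes I, III and IV pump protons across the inner membrane, and complex V, the ATP synthase, lets them flow back to make ATP. Mitochondrial DNA encodes a few core subunits of every complex except complex II, so each of those complexes is built from the products of both genomes. Neurons and myelin-forming oligodendrocytes draw on the ATP and precursors that mitochondria supply.

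The libraries held 55179026 counts (cKO) and 42875143 counts (WT), and their TMM scaling factors were 0.9994 (cKO) and 1.0006 (WT). Secisbp2l itself, counted over the whole gene and not over the floxed exon, had 466 CPM in cKO cord and 588 CPM in WT cord, a log2 ratio of -0.34 (95% interval -0.37 to -0.30). All 10 markers of mature oligodendrocytes were lower in cKO cord by at least 1.5-fold, with a summed level of 8484 CPM in cKO cord and 17641 CPM in WT cord. All 10 neuronal markers had ratios above 0, with sums of 7794 CPM in cKO cord and 6874 CPM in WT cord. The libraries also differed in sex-linked transcripts, since Xist had 13 counts in the cKO library and 35182 in the WT library and 4 genes of the Y chromosome had 1081 to 4280 counts in the cKO library and 0 in the WT library. Genotype and this difference cannot be told apart.

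The subunit genes hardly differed between the cords. Of the 102 genes, 93 reached a mean of 1 CPM, the count scaled to a library of 1000000, and were compared as a ratio of CPM, cKO over WT. None of the 93 passed a limit of 1.5-fold with a 95% counting interval that left out a ratio of 1, where 5.87% of all 15917 measured genes did, 2.44% higher and 3.43% lower in cKO cord. None passed the same rule at 1.2-fold, where 18.4% of all genes did, 8.44% higher and 9.93% lower. At 20 CPM or more, the level of most subunit genes, 0 of 86 passed either limit, beside 3.3% of 8666 genes at 1.5-fold and 15.8% at 1.2-fold. The ratios of 90 of the 93 lay within 1.2-fold, and the other 3 were low-level isoform genes of complex IV whose intervals included 0. The count of 0 rests on a symbol rule, and 3 further subunit genes are listed under other symbols. Among these, looked up after the values were seen, Usmg5, a small subunit of ATP synthase, had 197 TPM (a level scaled for transcript length and library size) in cKO cord and 250.1 TPM in WT cord, with a log2 ratio of -0.38 (-0.52 to -0.24), past the 1.2-fold limit. The other two, Ndufab1 and 2010107E04Rik, had log2 ratios of -0.07 and -0.10.

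Small ratios leaned to the lower side. Of the 93 measured genes, 65 had a log2 ratio below 0, beside 47.7% of all measured genes. That share of all genes is not matched for transcript length, with which the ratios varied, as described further below. With no limit of size, the interval left out 0 above it for 10 subunit genes (10.8%) and below it for 32 (34.4%), where 21.9% of all genes were higher and 18.4% lower by that rule. Of the 32, 12 were mitochondrial genes. Such a call depends on the level of a gene. At 20 CPM or more, 11.6% of 86 subunit genes were higher and 37.2% lower, beside 31.2% and 22.9% of 8666 genes. The median log2 ratio was -0.06 over the 93 genes and 0.01 over all genes. It was -0.13 for the mitochondrial genes and -0.03 for the nuclear subunit genes, of which 51 of 78 lay below 0. By complex, the nuclear medians were -0.05 for complex I, 0.05 for complex II, 0.00 for complex III, -0.10 for complex IV and -0.02 for complex V. In whole cord, fewer cells of a type and less RNA per cell cannot be told apart.

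The mitochondrial genes were by far the most abundant. The 13 genes held 12.1% of the TPM in cKO cord and 12.7% in WT cord, while the 89 nuclear genes held 2.04% in cKO cord and 2.03% in WT cord. The most abundant was mt-Co1, the catalytic subunit of complex IV, with 24900 TPM in cKO cord and 25270 TPM in WT cord. The lowest was mt-Nd3, a core membrane subunit of complex I, with 1041 TPM in cKO cord and 1083 TPM in WT cord. Among the subunits of complex I, mt-Nd1, which helps form the ubiquinone site, had 12234 TPM in cKO cord and 11422 TPM in WT cord. The proton-pumping subunits mt-Nd2, mt-Nd4 and mt-Nd5 had 6325, 7407 and 5657 TPM in cKO cord and 6637, 7943 and 6049 TPM in WT cord. The levels of mt-Cytb, the cytochrome b of complex III, were 11345 TPM in cKO cord and 12702 TPM in WT cord.

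The deposited levels of 7 of these genes are only part of what the reads of the same sequence gave. The reference genome holds a stretch of mitochondrial DNA copied into the nucleus, annotated as 7 pseudogenes that lie side by side on the minus strand at chr1:24611535-24616197 (GRCm38). No annotated pseudogene was matched to mt-Atp8, mt-Nd1, mt-Nd6 or mt-Cytb. The 7 copies had 762903 counts in cKO cord and 644731 counts in WT cord. Over the aligned bases, 5 of the 7 copies are identical to the mitochondrial gene, and each of the remaining 2 differs from it at 1 base. The difference in the mt-Nd3 copy Gm28438 is T3C and that in the mt-Co1 copy Gm29216 is A1066T, counted from 1 at the first base of the gene. The stretches around them are shown because those are the only bases within the aligned stretches that tell copy from gene, with the differing base in capitals (5′ to 3′ in the sense of the gene, GENCODE M21 transcripts).
mt-Nd3 chrMT:9459-9481: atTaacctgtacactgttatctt
Gm28438 chr1: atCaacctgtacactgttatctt
mt-Co1 chrMT:6390-6413: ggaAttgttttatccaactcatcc
Gm29216 chr1: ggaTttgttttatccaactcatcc

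The counts were shared out almost evenly where copy and gene span the same bases. The copies held 49.9% (cKO) and 50.04% (WT) of the summed counts of mt-Co2 and Gm28661, and 52.2% (cKO) and 51.5% (WT) of those of mt-Atp6 and Gm10925. For mt-Co3, mt-Nd4l and mt-Nd3 the copies' shares were between 49.7% and 52.9% in both cords. The copy of mt-Nd4 spans 876 of its 1378 bases and held 30.9% (cKO) and 31.1% (WT), and that of mt-Co1 spans 483 of 1545 bases and held 6.28% (cKO) and 6.52% (WT). Summed with all matched copies, of which those on other chromosomes added at most 376 counts to a gene, mt-Co2 had 20779 TPM in cKO cord and 21494 TPM in WT cord, while the gene alone had 10383 TPM in cKO cord and 10700 TPM in WT cord. On that sum the 13 genes held 17.0% of the TPM in cKO cord and 17.9% in WT cord. The sum adds the TPM of each copy, scaled to the copy's own length. For mt-Nd4 and mt-Co1, whose copies span part of the gene, it therefore overstates the level, and the shares are too high to that extent. The order of levels changed with the sum. As deposited, mt-Nd1 stood above mt-Co2 and mt-Atp6 in cKO cord, whereas the sums for mt-Atp6 were 23172 TPM in cKO cord and 25524 TPM in WT cord and exceeded every gene but mt-Co1.

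The ratios of the mitochondrial genes were small and 12 of the 13 lay below 0, each with an interval that left out 0. In the order of the genome, mt-Nd1 had a log2 ratio of 0.06 (0.05 to 0.08), the 1 value above 0. The largest differences were those of mt-Cytb, with -0.20 (-0.21 to -0.19), of mt-Atp6, a membrane subunit of ATP synthase at the proton channel, with -0.20 (-0.21 to -0.18), and of mt-Nd6, the 1 protein gene on the opposite strand, with -0.19 (-0.22 to -0.17). The ratios of mt-Co1, mt-Co2 and mt-Co3, the core of complex IV, were -0.06, -0.08 and -0.08. Those of mt-Nd2, mt-Nd3, mt-Nd4l, mt-Nd4 and mt-Nd5 were between -0.14 and -0.09. Summed with the copies, mt-Atp6 had a ratio of -0.17, every direction was the same, and the median was -0.13.

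**Figure D1:**
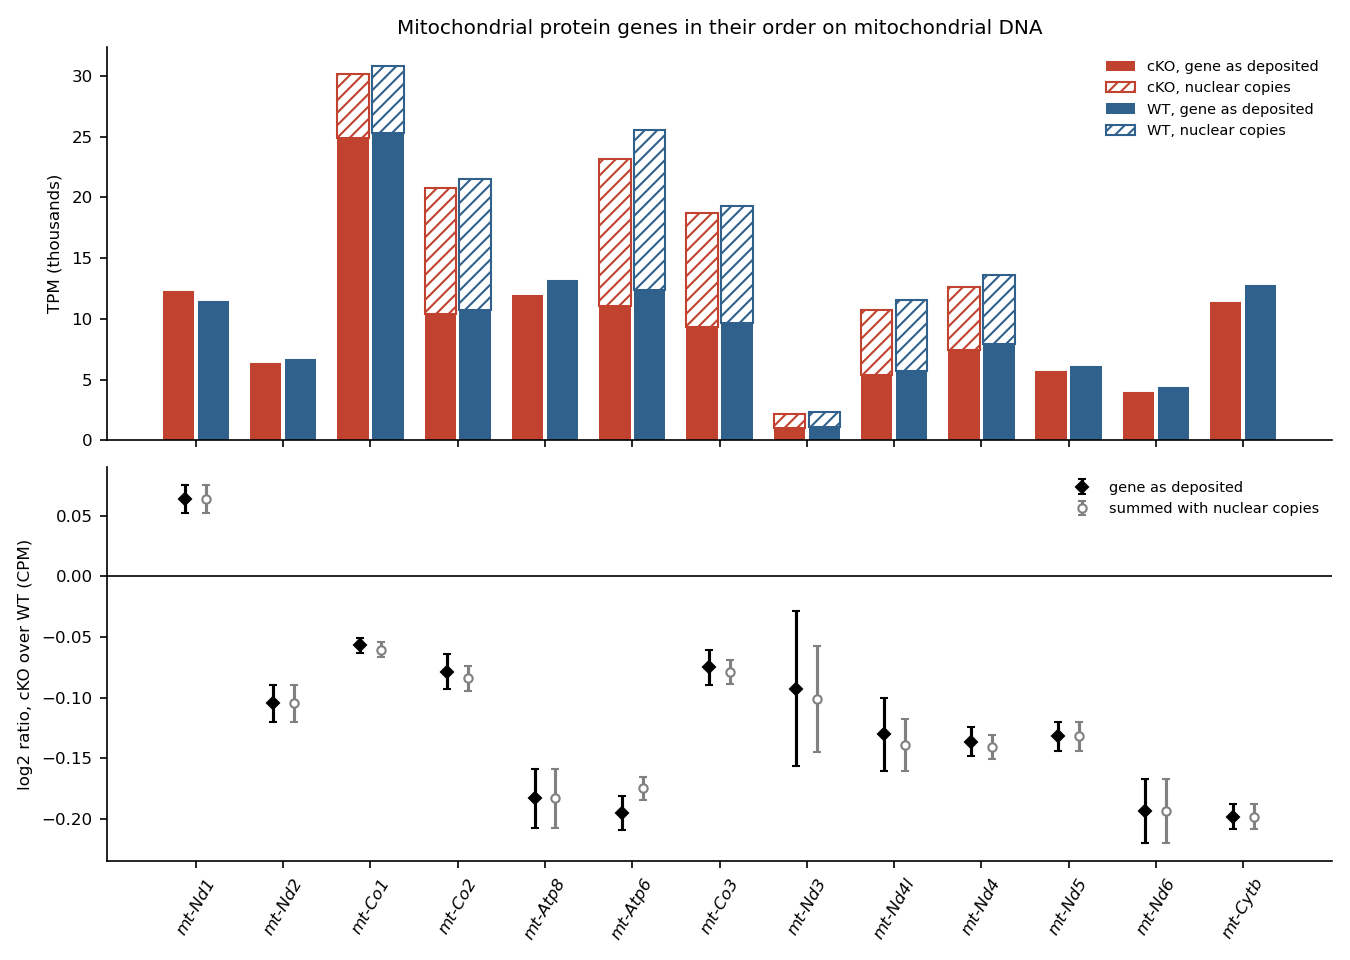
Upper panel, TPM of the mitochondrial protein genes in cKO (red) and WT (blue) cord, as deposited (filled bars) and in their nuclear copies (hatched); lower panel, log2 ratio of CPM, cKO over WT, with 95% counting interval, as deposited (diamonds) and summed with the copies (circles). For mt-Co2, mt-Atp6, mt-Co3, mt-Nd3 and mt-Nd4l the copies hold about as much as the gene, while the ratios differ little between the ways of counting.

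Neighbouring mitochondrial genes share bases, so their counts are not independent. The end of mt-Atp8 and the start of mt-Atp6 are the same 43 bases (chrMT:7927-7969), mt-Nd4l and mt-Nd4 share 7 bases (chrMT:10167-10173), and mt-Nd5 and mt-Nd6 share 14 bases on opposite strands (chrMT:13552-13565). The longest of these, which carries the start of mt-Atp6 and the last codons of mt-Atp8, a short subunit of the same membrane part of ATP synthase, is shown with the shared bases in capitals (chrMT:7915-7981, plus strand, GRCm38).
mt-Atp8 and mt-Atp6: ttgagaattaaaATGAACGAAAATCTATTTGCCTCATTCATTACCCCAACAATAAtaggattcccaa
The overlapping mt-Atp8 had 11868 TPM in cKO cord and 13149 TPM in WT cord, with a log2 ratio of -0.18 (-0.21 to -0.16), next to the -0.20 of mt-Atp6. The pair mt-Nd4l and mt-Nd4 had ratios of -0.13 and -0.14. Whether the authors' counting used strand is not given in the sources used here, so reads of mt-Nd5 and mt-Nd6 in the shared bases cannot be told apart.

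The nuclear subunit genes were spread over a wide range of levels in both cords. The highest was Atp5b, the catalytic beta subunit of ATP synthase, with 1498 TPM in cKO cord and 1384 TPM in WT cord. Cox6a1, a supernumerary subunit of complex IV, followed with 1072 TPM in cKO cord and 1060.1 TPM in WT cord. In cKO cord the median levels over the measured genes were 141 TPM for complex I, 228 TPM for complex II, 274 TPM for complex III, 333 TPM for complex IV and 331 TPM for complex V. In WT cord they were 142 TPM, 214 TPM, 257 TPM, 338 TPM and 339 TPM for the same complexes. Summed over genes, complex V stood first in both cords, with 6665 TPM in cKO cord and 6426 TPM in WT cord, and complex IV second, with 5540 TPM in cKO cord and 5681 TPM in WT cord. The 4 genes of complex II, which has no mitochondrial subunit, summed to 796 TPM in cKO cord and 759.8 TPM in WT cord.

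**Figure D2:**
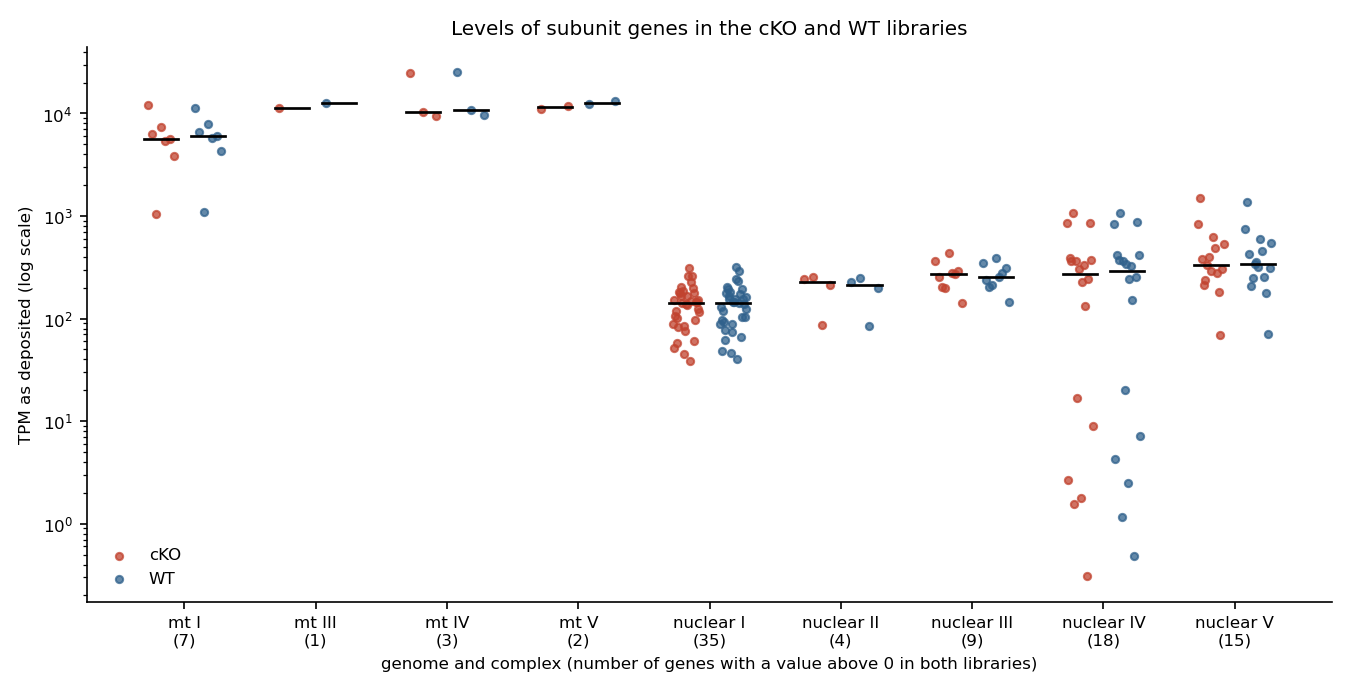
Levels of subunit genes in TPM as deposited (log scale) in cKO (red, left of each pair) and WT (blue, right) cord, by genome and complex; each point is a gene with a value above 0 in both libraries and the black bar is the median of those genes. Mitochondrial genes lie at or above 1041 TPM, most nuclear genes lie between 38.3 TPM and 1498 TPM, and the separate low group under complex IV holds isoform genes.

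Complex I takes electrons from NADH and is the largest complex of the chain. All 35 of its nuclear subunit genes found by the symbol rule were measured, and 24 lay below 0. Of the 7 nuclear core subunits, which carry the flavin and the iron-sulfur clusters, the median log2 ratio was 0.02. It was -0.05 for the 28 accessory subunits found by that rule. Ndufv1, the core subunit that binds NADH and the flavin, had 123 TPM in cKO cord and 103 TPM in WT cord, and its log2 ratio of 0.25 (0.16 to 0.35) was the highest among genes of 5 CPM or more. Ndufa7, an accessory subunit, had 177 TPM in cKO cord and 203 TPM in WT cord, and its -0.24 (-0.37 to -0.12) was the lowest. The abundant accessory subunits Ndufb9 and Ndufb8 had 311 and 260.2 TPM in cKO cord and 317 and 246 TPM in WT cord, with ratios of -0.06 (-0.15 to 0.02) and 0.06 (-0.04 to 0.15).

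Complex II links the citric acid cycle to the chain. Sdha, the flavoprotein that oxidises succinate, had 245 TPM in cKO cord and 227 TPM in WT cord, with a log2 ratio of 0.07 (0.03 to 0.12). Sdhb, its iron-sulfur partner in the catalytic head, had 253 TPM in cKO cord and 248 TPM in WT cord, with 0.00 (-0.08 to 0.07). The membrane anchors Sdhc and Sdhd had ratios of 0.06 and 0.05, and both intervals included 0. Complex II was the smallest group, and the range of its ratios ran from 0.00 to 0.07.

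Complex III passes electrons to cytochrome c, and its nuclear genes were divided, with 5 above 0 and 4 below. Uqcrc1, a core protein of the matrix side, had 436 TPM in cKO cord and 391 TPM in WT cord, with a log2 ratio of 0.12 (0.08 to 0.17). Cyc1, cytochrome c1, which hands electrons to cytochrome c, had 368 TPM in cKO cord and 345 TPM in WT cord, with 0.06 (0.00 to 0.12). The small subunits Uqcrh, or hinge protein, and Uqcrb had 289 and 198 TPM in cKO cord and 311 and 214 TPM in WT cord, with ratios of -0.14 (-0.24 to -0.05) and -0.15 (-0.26 to -0.03).

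Complex IV reduces oxygen, and several of its supernumerary subunits exist as isoforms of separate genes. Of its 20 nuclear genes, 15 were measured and 14 of these lay below 0. Cox7b, an X-linked subunit, had 134 TPM in cKO cord and 153 TPM in WT cord, with a log2 ratio of -0.22 (-0.33 to -0.12). Ndufa4, first assigned to complex I and later found in complex IV, had 375 TPM in cKO cord and 417 TPM in WT cord, with -0.19 (-0.27 to -0.11). Cox6c had 308 TPM in cKO cord and 338 TPM in WT cord, with -0.17 (-0.26 to -0.08). Those 3 were the largest differences of complex IV among genes of 5 CPM or more. Cox4i1, a subunit at which ATP regulates the complex, had 847 TPM in cKO cord and 829.7 TPM in WT cord, with 0.00 (-0.05 to 0.05).

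In each isoform family of complex IV the widely expressed gene dominated in both cords. Cox4i1 stood above Cox4i2, known from lung and from responses to low oxygen, which had 2.65 TPM in cKO cord and 4.29 TPM in WT cord. Cox6a1 stood above the heart and skeletal muscle isoform Cox6a2, which had 1.55 TPM in cKO cord and 1.17 TPM in WT cord. Cox6b1, with 361 TPM in cKO cord and 364 TPM in WT cord, stood above the testis isoform Cox6b2, with 16.9 TPM in cKO cord and 20.2 TPM in WT cord. Cox7a2, with 229 TPM in cKO cord and 243 TPM in WT cord, stood above the muscle isoform Cox7a1, with 1.80 TPM in cKO cord and 2.50 TPM in WT cord. Cox7a2l, which takes part in joining complex III to complex IV, had 333 TPM in cKO cord and 328 TPM in WT cord. Cox8a, with 853 TPM in cKO cord and 867 TPM in WT cord, was the sole Cox8 gene with more than 10 counts, since the muscle isoform Cox8b had 8 counts in cKO cord and 0 in WT cord and Cox8c had 0 in both. Cox7b2, a testis isoform, had 4 counts in cKO cord and 5 in WT cord. A count of 0 allows up to 3 fragments, or 6 counts, so Cox8b gives no ratio.

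The 3 genes whose ratios lay outside 1.2-fold were all in these families. Cox4i2 had 47 counts in cKO cord and 61 in WT cord, a log2 ratio of -0.74 (-1.56 to 0.08). Cox6b2 had 212 counts in cKO cord and 201 in WT cord, with -0.29 (-0.70 to 0.12). Ndufa4l2, a relative of Ndufa4 that is induced by low oxygen and marks pericytes in brain, had 202 counts in cKO cord and 129 in WT cord, with 0.28 (-0.19 to 0.75). All 3 intervals included 0, so no difference was detected at these counts. The 10 markers of pericytes and smooth muscle had a median ratio of 0.11 and summed to 556 CPM in cKO cord and 532 CPM in WT cord, and their part in the values of Ndufa4l2 was not tested.

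Complex V makes ATP. In the catalytic head, Atp5a1 and Atp5b, the alpha and beta subunits, had 833 and 1498 TPM in cKO cord and 740.4 and 1384 TPM in WT cord, with log2 ratios of 0.12 (0.10 to 0.15) and 0.08 (0.06 to 0.10). Atp5c1, the gamma subunit that turns inside the head, had 385 TPM in cKO cord and 426 TPM in WT cord, with -0.18 (-0.24 to -0.12). Atp5e, the epsilon subunit at the foot of that shaft, had 236 TPM in cKO cord and 249 TPM in WT cord, with -0.14 (-0.26 to -0.02). The alpha and beta subunits thus lay above 0, and the gamma and epsilon subunits below it. The c ring, through which protons pass, is encoded by 3 genes with the same mature protein. Of these Atp5g3 had 629 TPM in cKO cord and 599.7 TPM in WT cord, Atp5g1 had 399 TPM in cKO cord and 354 TPM in WT cord, and Atp5g2 had 291 TPM in cKO cord and 316 TPM in WT cord. Their ratios were 0.03 (-0.03 to 0.09), 0.07 (0.01 to 0.14) and -0.15 (-0.24 to -0.07), and summed over the 3 genes the ring had 1319 TPM in cKO cord and 1270.1 TPM in WT cord. The other X-linked subunits, Ndufa1 and Ndufb11 of complex I, had ratios of -0.04 (-0.24 to 0.17) and -0.01 (-0.11 to 0.09).

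Gene totals hid differences between transcripts of some subunit genes. For Ndufv1, the transcript Ndufv1-201 held 50.1% of the gene's counts in cKO cord (95% Wilson interval 48.0% to 52.2%) and 55.4% in WT cord (52.8% to 58.0%), and Ndufv1-202 held 40.5% in cKO cord and 35.3% in WT cord. At low counts, Ndufa4l2-201 held 100% of counts in cKO cord (96.3% to 100%) and 82.2% in WT cord (71.1% to 89.6%), and the intervals of the Cox4i2-201 share overlapped, at 70.2% in cKO cord and 82.0% in WT cord. Larger differences, named after their values were seen, were those of Ndufs1, the largest core subunit of complex I, and of Atp5o, the subunit that joins the stalk of ATP synthase to its head. Ndufs1-201 held 40.2% of counts in cKO cord (38.7% to 41.6%) and 14.0% in WT cord (12.9% to 15.3%), while Ndufs1-203 held 47.7% in cKO cord and 72.1% in WT cord. The total of Ndufs1 had a log2 ratio of 0.06 (0.00 to 0.13). Both transcripts have 19 exons, share 17 of them to the base and differ in the first exon (chr1:63176586-63176822 in Ndufs1-201 and chr1:63176428-63176732 in Ndufs1-203) and in where the last exon ends. Atp5o-201 held 84.5% of counts in cKO cord (83.5% to 85.5%) and 63.9% in WT cord (62.4% to 65.3%), and Atp5o-203, with another first exon, held 13.9% in cKO cord and 34.3% in WT cord. The total of Atp5o had a ratio of -0.03 (-0.08 to 0.03). A further 3 differences, also named after their values were seen, concerned transcripts that retain an intron: Atp5j-208 held 18.4% in cKO cord and 4.68% in WT cord, Ndufb10-202 held 14.6% in cKO cord and 7.95% in WT cord, and Atp5k-203 held 25.7% in cKO cord and 17.6% in WT cord. Counts of transcripts that share nearly all exons are estimates that the authors' program assigned, and the interval does not cover that assignment.

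The ratio of the nuclear subunit genes went with the length of their main transcript, as it did in the rest of the table. Among the 31 subunit genes of 20 CPM or more with a main transcript of up to 750 nucleotides the median log2 ratio was -0.07, and among 135 other genes of that length it was -0.08. Of the 31 subunit genes 22 lay below 0, beside 72.6% of those other genes. From 750 to 1500 nucleotides the medians were -0.02 for 24 subunit genes and -0.04 for 727 other genes, with 17 subunit genes and 59.0% of the others below 0. From 1500 to 3000 nucleotides they were 0.06 for 15 subunit genes and 0.00 for 2466 other genes, with 6 subunit genes and 50.4% of the others below 0. Above 3000 nucleotides the 2 subunit genes had a median of -0.05, while 5236 other genes had 0.05. Spearman's rho between length and ratio was 0.27 across 72 subunit genes and 0.21 across 8564 other genes, given as a description, since genes of the same pair of libraries are not independent. Of genes named above, Atp5a1, Atp5b, Sdha, Uqcrc1 and Ndufv1 have main transcripts of 2471, 1916, 2900, 1653 and 1661 nucleotides, while Ndufa7, Ndufa4, Cox6c and Uqcrh have 528, 610, 503 and 547. Other genes went against that order. Ndufs4 and Ndufb2, with 1698 and 4371 nucleotides, had log2 ratios of -0.17 and -0.17. Atp5g1 and Ndufa2, with 596 and 572 nucleotides, had 0.07 and 0.09. The part of length in the ratios of single genes was not tested.

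**Figure D3:**
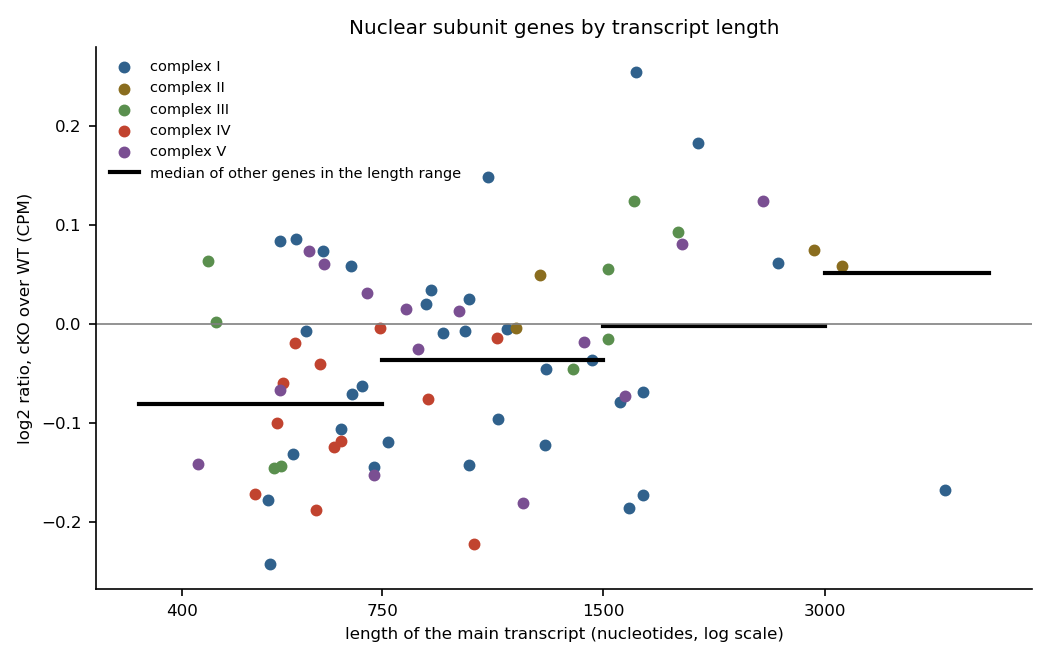
Log2 ratio of CPM, cKO over WT, of nuclear subunit genes of 20 CPM or more (points, coloured by complex) against the length of the main transcript (log scale); black bars are the medians of all other genes in the ranges up to 750, 750 to 1500, 1500 to 3000 and above 3000 nucleotides. Subunit genes of short transcripts lie mostly below 0 and follow the bars of the other genes; of the 2 above 3000 nucleotides, 1 lies below 0.

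Nuclear subunit genes share promoter sequences that bind the factors NRF1, GABPA (also called NRF-2 alpha) and YY1, which are known to tie their transcription to that of mitochondrial DNA. RefSeq promoters (250 bases before to 50 bases after the start, GRCm38.p6) matched 66 of the 83 nuclear subunit genes by symbol. The NRF1 motif, GCGCA and GCGC with any 1 base between them, was found on either strand in 17 of them (25.8%), against 5.14% of 26959 other genes with a promoter and 12.5% of the 6626 of those at 20 CPM or more. The GABPA motif CCGGAAG was found in 16 (24.2%), against 9.89% and 19.4%, and the YY1 motif, AA and any 1 base followed by ATGG and CGGC with no gap, in 4 (6.06%), against 1.16% and 3.15%. Matches of different motifs may overlap and were counted apart. The promoters with the most matches, 3 each, are those of the following genes, with the motifs in capitals (5′ to 3′ on the strand of the gene, 250 bases before to 30 bases after the start).
Sdha chr13:74350211-74350490 minus strand: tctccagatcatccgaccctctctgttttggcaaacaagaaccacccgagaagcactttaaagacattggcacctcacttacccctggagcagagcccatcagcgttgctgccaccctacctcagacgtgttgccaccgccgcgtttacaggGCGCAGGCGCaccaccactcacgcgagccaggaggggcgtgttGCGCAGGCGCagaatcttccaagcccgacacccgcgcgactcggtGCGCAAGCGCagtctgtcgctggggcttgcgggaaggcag
Ndufb4 chr16:37654339-37654618 minus strand: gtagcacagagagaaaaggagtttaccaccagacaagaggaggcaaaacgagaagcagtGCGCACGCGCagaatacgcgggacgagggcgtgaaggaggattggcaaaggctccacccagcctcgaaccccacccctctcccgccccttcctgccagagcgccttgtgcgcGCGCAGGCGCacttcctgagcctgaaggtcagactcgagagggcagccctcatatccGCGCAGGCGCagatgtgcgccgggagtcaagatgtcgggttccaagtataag
Cox6a1 chr5:115348929-115349208 minus strand: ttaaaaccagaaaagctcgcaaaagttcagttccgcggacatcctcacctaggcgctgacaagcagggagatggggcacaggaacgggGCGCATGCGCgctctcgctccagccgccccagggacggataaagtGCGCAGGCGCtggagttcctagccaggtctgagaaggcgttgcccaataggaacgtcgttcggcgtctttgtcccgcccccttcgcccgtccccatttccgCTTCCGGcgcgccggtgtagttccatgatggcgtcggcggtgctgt

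All 3 motifs in Sdha and in Ndufb4, an accessory subunit of complex I, match NRF1, while Cox6a1 holds 2 for NRF1 and 1 for GABPA. Their log2 ratios were 0.07, -0.01 (-0.15 to 0.14) and -0.02 (-0.07 to 0.03). Over the measured nuclear subunit genes with a promoter, the median ratio was -0.01 for the 32 with any of the 3 motifs and -0.07 for the 31 without. The ranges overlapped, from -0.18 to 0.15 with a motif and from -0.29 to 0.25 without. The transcript levels of the factors were 12.8 TPM in both cords for Nrf1, 21.9 TPM in cKO cord and 24.0 TPM in WT cord for Gabpa, and 30.3 TPM in cKO cord and 32.4 TPM in WT cord for Yy1. Their log2 ratios were -0.05 (-0.29 to 0.19), -0.17 (-0.30 to -0.05) and -0.15 (-0.24 to -0.06). Gabpa shares 397 exon bases with the subunit gene Atp5j on the opposite strand, and without strand reads there cannot be told apart. Of the 83 nuclear subunit genes, 26 share exon bases with a gene on the opposite strand. The median ratio of the measured ones was -0.04, beside -0.03 for those without such an overlap. A match is a sequence and not a measured site.

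Genes that assemble the complexes, maintain mitochondrial DNA or regulate the subunit genes were looked at in 10 lists, of which 113 genes outside the subunit rule were measured. Their median log2 ratio was -0.04, with 66 below 0. By the 1.5-fold rule 3 were higher and 1 lower in cKO cord (3.54%, beside the 5.87% of all genes), and by the 1.2-fold rule 6 were higher and 12 lower (15.9%, beside 18.4%). These genes are mostly of low level, and of the 52 at 20 CPM or more 0 passed 1.5-fold, beside 3.3% of all genes at that level. By the 1.2-fold rule 2 in each direction passed (7.69%, beside 15.8%).

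The genes past these limits belong to different steps. Ndufaf4, an assembly factor of complex I, had 18.6 TPM in cKO cord and 8.21 TPM in WT cord, with a log2 ratio of 1.19 (0.97 to 1.40), the largest of the lists after Pet117. Ndufaf1, which acts on an intermediate of the same complex, had 19.7 TPM in cKO cord and 22.4 TPM in WT cord, with -0.35 (-0.59 to -0.11). For complex III, Uqcc1, needed for cytochrome b, had 0.50 (0.33 to 0.67), and Bcs1l, which inserts the iron-sulfur protein, had -0.43 (-0.71 to -0.15). Of the complex IV list, 1 gene was higher and 4 were lower by the 1.2-fold rule. The lower ones included Cox17, a copper chaperone, with 23.3 TPM in cKO cord and 32.0 TPM in WT cord and a ratio of -0.70 (-0.99 to -0.40). The others were Cox20, a chaperone of its second core subunit, with -0.56 (-0.88 to -0.24), Coa7 with -0.44 (-0.68 to -0.20), and Cox16 with -0.31 (-0.55 to -0.06). Cox16, with 575 counts in cKO cord and 554 in WT cord, shares 2130 exon bases with Gm20498 on the same strand. Gm20498 went the other way, with 423 counts in cKO cord and 247 in WT cord, so the ratio of Cox16 depends on how shared reads were assigned. The higher one, Pet117, had 271 counts in cKO cord and 1 in WT cord, but it shares 693 exon bases with Csrp2bp on the same strand, and the sum of the 2 genes was 1413 counts in cKO cord and 897 in WT cord, with 0.29 (0.12 to 0.47). Tmem70, which helps build the c ring, had -0.31 (-0.52 to -0.10), and Apool, of the cristae junction complex, had -0.57 (-0.94 to -0.19).

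Genes of mitochondrial DNA and RNA stood on both sides. Polrmt, the mitochondrial RNA polymerase, had 19.2 TPM in cKO cord and 15.8 TPM in WT cord, with a log2 ratio of 0.29 (0.13 to 0.46), and Polg, the catalytic subunit of the DNA polymerase, was among the lower genes with -0.27 (-0.39 to -0.16). Mgme1, an exonuclease of mitochondrial DNA, had -0.48 (-0.84 to -0.11), and Mterf4, which acts in the assembly of the mitochondrial ribosome, had -0.43 (-0.67 to -0.19). Elac2, which cuts the 3′ ends of tRNAs out of mitochondrial transcripts, had -0.30 (-0.45 to -0.14). Pdss2, which helps make the tail of ubiquinone, had 0.29 (0.06 to 0.53). Tfam, which packs mitochondrial DNA and starts its transcription, had 23.9 TPM in cKO cord and 23.1 TPM in WT cord, with 0.05 (-0.08 to 0.18). Ppargc1b, a coactivator of the nuclear subunit genes, had 7.73 TPM in cKO cord and 4.69 TPM in WT cord, with 0.63 (0.35 to 0.91). Several of these genes share exon bases with a neighbour on the opposite strand, among them Mterf4 with Sned1, Cox20 with Hnrnpu, Polg with Fanci and Mgme1 with Snx5, and reads of such pairs cannot be told apart without strand.

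**Figure D4:**
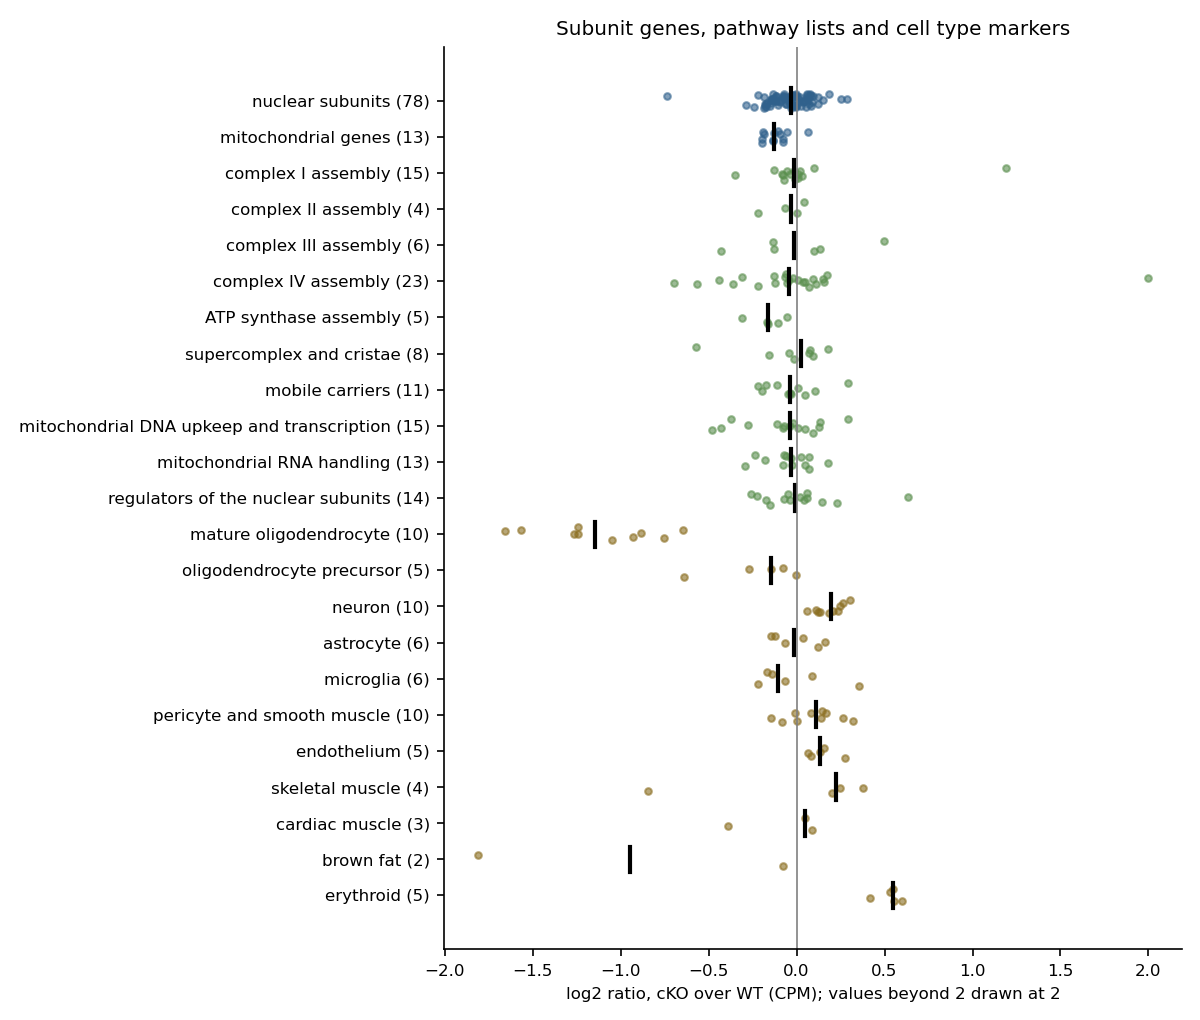
Log2 ratio of CPM, cKO over WT, of measured genes (points) with the median (black bar) for the subunit genes (blue), the pathway lists (green) and the cell type markers (brown); the number of genes is in brackets and Pet117 is drawn at 2. The subunit genes and pathway lists centre near 0, while the 10 mature oligodendrocyte markers have a median of -1.14.

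The 10 mature oligodendrocyte markers had log2 ratios from -1.66 to -0.65, while those of the subunit genes of 5 CPM or more ran from -0.24 to 0.25. Mbp, a major myelin protein, had 2854 CPM in cKO cord and 5277 CPM in WT cord. The 5 precursor markers had a median log2 ratio of -0.15 and all lay below 0, from -0.64 for Gpr17 to -0.004 for Ptprz1. The median was -0.01 for astrocyte markers, -0.10 for microglia markers, 0.13 for endothelial markers and 0.55 for red cell markers. Tissues with their own complex IV isoforms were near absent. The skeletal muscle markers summed to 18.4 CPM in cKO cord and 15.6 CPM in WT cord, those of cardiac muscle to 9.65 CPM in cKO cord and 11.1 CPM in WT cord, those of brown fat to 8.14 CPM in cKO cord and 11.4 CPM in WT cord, and no sperm marker was measured. Most of the brown fat sum was Cidea, with 7.34 CPM in cKO cord and 7.76 CPM in WT cord. In that list Ucp1 had 3 counts in cKO cord and 58 in WT cord, and Fabp4 had 26 in cKO cord and 71 in WT cord. The part of cell composition in the ratios of the subunit genes was not tested.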

How the data were processed

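Total RNA of P7 spinal cord was made into mRNA libraries and sequenced on an Illumina HiSeq 2500, per the labels' protocols. Bowtie2 2.3.2, CASAVA and GRCm38.p6 are named in the submitters' processing notes, without their roles. Per the file headers, the deposited tables give counts, FPKM and TPM, per gene and per transcript. The deposited counts are estimated counts rounded up: FPKM multiplied by length and a constant, taken to the whole number above it, gave 98.55% (cKO) and 98.61% (WT) of transcripts under 50 counts (within 0.1). Low values of genes with 1 transcript clustered in part at even numbers. Near an even number lay 32.6% (cKO) and 34.2% (WT), and near an odd number 19.2% (cKO) and 18.1% (WT). On that partial clustering 1 fragment was taken as 2 counts, and the width of the intervals rests on this choice.

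Ratios are cKO over WT CPM on TMM library sizes (edgeR 4.0.16), with no pseudocount, for genes of at least 1 mean CPM. Intervals of ratios are exact Clopper-Pearson 95% intervals. These were tried on fragments simulated under the counting model they assume, so that trial checks the calculation and not the model. Intervals of shares are Wilson intervals and were not tried on simulated data. All intervals cover counting error only. Levels between genes are TPM as deposited. Copies were annotated pseudogenes (GENCODE M21) aligned at 95% identity or more (BLAST 2.17.0). Coordinates of 87 of the 102 genes equal those of GENCODE M21, and positions given here are the files' unless a reference is named.

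Named genes are the 13 mitochondrial genes, the 3 most abundant and the 3 of largest ratio (at 5 CPM or more) of each complex, isoform families, X-linked genes and, of each pathway list, up to 3 past 1.2-fold. Some genes that this rule names are not reported here. The genes and lists were chosen with earlier results of these data known. Alternatives changed the scaling, unit, pseudocount, filter, copies and the reads per count. Genes Coa1, Dmac2, Fastkd4, Mic13, Micos10 and Prorp of the lists were not found by symbol.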

Additional observations from a re-analysis of the deposited data

How the results depend on the processing

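No paired analysis was possible because each group had 1 library, and no replicate could be left out. No subunit gene passed either fold limit under the other scalings, units, pseudocounts or filters, except that 1, Ndufv1, passed 1.2-fold upwards with upper quartile scaling and 1, Cox4i2, passed 1.5-fold and 1.2-fold downwards with each count taken as 1 read, which narrows the interval. The mitochondrial median of -0.13 became -0.11 with upper quartile scaling and -0.10 on TPM with a pseudocount of 0.1 or 1; the cause was not tested. With the nuclear copies counted, the mitochondrial share of TPM was 17.0% in cKO cord and 17.9% in WT cord. By construction that share is higher than the 12.1% (cKO) and 12.7% (WT) of the genes alone, and partial copies overstate it. Upper quartile scaling changed the sign of 4 of the 47 named subunit genes, Cox4i1, Cox7a2l, Ndufb11 and Sdhb, TPM changed these and Cox6a1, and FPKM changed Sdhc, all with intervals that include 0. The ratio moved beyond its counting interval for 9 named genes with upper quartile scaling, 15 on TPM and 1 with copies summed. Of the pathway genes, the 1 lower by 1.5-fold was lost on TPM or FPKM (0), and at 20 CPM, a limit chosen after seeing the data, 0 of 52 were left in either direction at 1.5-fold (3.3% of all genes) and 2 higher and 2 lower at 1.2-fold (15.8% of all genes). Medians of the nuclear complexes moved by less than their genes' counting intervals. The depth limits low-level isoforms such as Cox4i2.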

Other observations

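Among the genes of mitochondrial DNA that encode no protein, the transfer RNA genes on the minus strand differed more than the protein genes. The 8 of them summed to 1169 counts in cKO cord and 2651 counts in WT cord, a log2 ratio of -1.54 (95% counting interval -1.69 to -1.40), and all 8 lay below 0, with intervals that included 0 for mt-Tq, mt-Ts1 and mt-Tp. The largest was mt-Te, the tRNA for glutamate, with 521 counts in cKO cord and 1291 counts in WT cord and a ratio of -1.67 (-1.88 to -1.46), and mt-Ty, the tRNA for tyrosine, had 90 counts in cKO cord and 261 counts in WT cord, with -1.90 (-2.43 to -1.41). By comparison, mt-Nd6, the protein gene of the same strand, had -0.19. The 14 transfer RNA genes of the plus strand summed to 2583 counts in cKO cord and 2058 counts in WT cord, with -0.03 (-0.15 to 0.09), but mt-Tl1 alone made up most of that sum, and without it the sums were 648 counts in cKO cord and 743 counts in WT cord, with -0.56 (-0.78 to -0.34). On that strand mt-Th, the tRNA for histidine, had 56 counts in cKO cord and 127 counts in WT cord, with -1.54 (-2.25 to -0.89). The ribosomal RNA genes mt-Rnr1 and mt-Rnr2 had ratios of -0.07 and -0.29. Strand use in the counting is not given in the sources used here. These are mRNA libraries, and the transfer RNA genes are short and lie next to other genes. Reads of mature transfer RNA and of longer or neighbouring transcripts cannot be told apart, so the counts do not measure the level of mature transfer RNA.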
